A study of Mus musculus with 70 samples.

Results

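Transcripts of 9 genes of prostaglandin metabolism and monoamine breakdown were followed through serial passage of a mouse renal cancer line. The genes are Ptgs1 and Ptgs2, the cyclooxygenases, Ptges, Ptgis and Ptgds, which make prostaglandin E2, prostacyclin and prostaglandin D2, Hpgd, which inactivates prostaglandins, Ptger4, a receptor for prostaglandin E2, and the monoamine oxidases Maoa and Maob. They were picked by symbol, and 11 of the 55681 probes on the array carry the name of 1 of them, out of 21154 genes that could be named. Maoa and Ptgds were included because both were lower in late passages of the tail-vein route. Their values in comparisons with that route are therefore a description, given with no test.

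All samples came from RENCA cells, a renal adenocarcinoma line of BALB/c mice, made to express GFP. P0 cells had not been in a mouse. At each passage cells were injected into wild type female BALB/c mice (6 weeks old for the kidney injections, while the age at tail-vein injection is not given in the sources used here), the tumour tissue was digested, and the cells were cultured before the next injection, so each sample is a line grown out of explanted tissue and not the tissue itself. KPT lines were recovered from kidney tumours after injection under the kidney capsule, T-LM lines from lung metastases after tail-vein injection, and K-LM lines from lung metastases of kidney-injected mice. Cultures were kept until no GFP-negative cells were seen, by the study's methods. There were 65 RNA samples: 2 of P0, then 5, 2, 2, 3, 5 and 5 of KPT from P1 to P6, 5, 2, 3, 4, 6 and 4 of T-LM, and 1, 1, 5, 3, 4 and 3 of K-LM. The comparisons ask how the genes change along a route, from P0, P1 or P3 to P6, and how routes differ at P5 and P6.

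Cyclooxygenases turn arachidonic acid, released from membranes by phospholipases, into prostaglandin H2, and terminal synthases then make the separate prostanoids from it. Ptgs1 is made by many cells at a steady rate, while Ptgs2 is induced by growth factors and inflammatory signals and is high in many carcinomas. In the kidney prostaglandin E2 acts on salt handling and blood flow, and prostacyclin relaxes vessels. Monoamine oxidases sit on the outer mitochondrial membrane and oxidise amines such as serotonin and noradrenaline.

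Promoters are shown for Maoa and Ptgds, which were chosen for their low late levels, for Ptgs2, the member with the widest range, and for Ptges, whose probes disagree. RefSeq sequence of the 250 bases before the gene's start was given for 7 of the 9 members. It is printed 5′ to 3′ on the strand of the gene, with matches of the searched motifs in capitals on either strand.
Maoa, GRCm38.p6 chrX:16619448-16619697, plus strand: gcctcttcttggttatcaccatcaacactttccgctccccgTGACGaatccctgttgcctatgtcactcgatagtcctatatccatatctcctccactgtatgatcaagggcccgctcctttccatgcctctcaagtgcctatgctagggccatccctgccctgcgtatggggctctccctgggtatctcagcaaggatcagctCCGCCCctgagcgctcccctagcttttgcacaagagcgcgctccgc
Ptgds, GRCm38.p6 chr2:25469750-25469999, minus strand: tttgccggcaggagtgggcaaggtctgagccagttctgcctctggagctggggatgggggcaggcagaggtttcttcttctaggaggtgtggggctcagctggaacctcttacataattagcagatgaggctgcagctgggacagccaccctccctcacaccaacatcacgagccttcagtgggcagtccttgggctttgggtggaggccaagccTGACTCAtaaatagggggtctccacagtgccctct
Ptgs2, GRCm38.p6 chr1:150099781-150100030, plus strand: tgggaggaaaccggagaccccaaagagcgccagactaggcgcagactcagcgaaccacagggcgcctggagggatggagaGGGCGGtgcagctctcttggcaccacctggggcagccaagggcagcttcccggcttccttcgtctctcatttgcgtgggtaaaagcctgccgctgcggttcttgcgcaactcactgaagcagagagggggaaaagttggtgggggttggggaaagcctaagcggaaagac
Ptges, GRCm38.p6 chr2:30903298-30903547, minus strand: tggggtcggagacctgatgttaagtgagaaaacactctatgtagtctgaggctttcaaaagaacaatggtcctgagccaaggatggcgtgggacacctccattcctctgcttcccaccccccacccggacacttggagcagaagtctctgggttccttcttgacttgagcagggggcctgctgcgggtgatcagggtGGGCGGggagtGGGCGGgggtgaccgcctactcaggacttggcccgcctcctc
The motifs searched, each on both strands, were the TATA box TATAAA, the GC box core GGGCGG, the cAMP response motif CGTCA, the E-box CACGTG and the AP-1 motif TGANTCA, and no match overlapped another. GGGCGG was found in Ptgs2 (1 match), Ptges (2 matches) and Maoa (1 match), and in 32.7% of 32851 promoters of the same length. CGTCA was found in Maoa and in 17.8% of promoters. TGANTCA was found in Ptgds and in 6.75%. TATAAA and CACGTG had no match in these 4 windows, against 12.4% and 6.02% of all promoters.

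Levels are log2 of the array signal minus the 75th percentile of the commonly detected probes of that array, so a level of 0 is as bright as that percentile, and the levels of different probes are not comparable with each other. A change was called at an adjusted p of 0.01 or less in limma, and every adjusted p below is from limma with Benjamini-Hochberg adjustment over all probes tested. The p-values measure the spread between samples, which may be partly technical, since nothing in the labels says that each came from a separate mouse. Changes are given as fitted log2 differences with their standard error, and group levels as mean ± SD over RNA samples. Because these are bulk samples, fewer cells of a type and less RNA per cell cannot be told apart.

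Some samples stood apart. Krt18, an epithelial keratin of the line, was high in all 65 samples and Pax2 was never well above background. T-LM P1 replicate 1, placed in its group by other labels than its title, stood beside P0 in several members. In 17 samples the mean level of the macrophage genes Tyrobp and Fcer1g was above -4: KPT P1 replicates 3 to 5, KPT P4 replicates 1 and 3, KPT P5 replicates 1 and 2, all 4 T-LM P4, T-LM P5 replicate 1, all 4 T-LM P6 and K-LM P5 replicate 6. Results that rest on them are given with and without them. Some of them were also bright in Col1a1, a fibroblast collagen. KPT P1 replicates 3 and 4 were at -0.80 and 1.77 in it, against -3.23 and -3.52 in replicates 1 and 2. All 3 K-LM P6 arrays lie on a slide scanned later, together with repeat arrays of both P0 and 3 KPT P6 samples, and no member differed between that slide and the others in the same RNA at the threshold (differences from -0.50 to 0.08). Arrays of the same RNA on 2 slides differed by a median of 0.25 to 0.319 per probe, and 12 of 117 pairs of different samples of a group differed by less than 0.25, 6 of them in KPT P6 and 3 in K-LM P6.

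Maoa, which prefers serotonin and noradrenaline as substrates, was bright in P0 and at P3, and had its lowest group mean in T-LM P6. In P0 it was at -0.51 and -0.62. In T-LM P3 it was at -0.34, -0.12 and -0.73, and in T-LM P6 at -3.55, -3.28, -3.73 and -3.68. The T-LM P3 and P6 samples did not overlap. The fitted difference was -3.16 ± 0.25 (SE), 8.96-fold lower at P6, and the difference from P0 to T-LM P6 was -2.97 ± 0.28. In each of the 3 slides that held both T-LM P3 and P6, Maoa was lower at P6 (differences from -3.61 to -2.94).

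The other routes ended higher. KPT P6 was at -1.78, -2.0, -1.85, -1.66 and -1.71, and K-LM P6 at -1.56, -1.32 and -1.94. Both ranges overlap each other and lie wholly above T-LM P6. From P3, the fitted change was -1.02 ± 0.60 in KPT (adjusted p 0.336) and -0.86 ± 0.33 in K-LM (adjusted p 0.0739), and from P0 it was -1.24 ± 0.60 (adjusted p 0.29) and -1.07 ± 0.36 (adjusted p 0.0613). None of these 4 was called. With only P0 and P6 fitted, the KPT change from P0 had an adjusted p of 0.000931, and on the late slide alone those of KPT (-1.23) and K-LM (-1.06) had 0.00193 and 0.00301. The KPT and K-LM changes from P0 share their P0 samples with that of T-LM.

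Between P3 and P6, Maoa levels moved in both directions. K-LM P5 was at -2.66, -2.82, -2.71 and -2.73, below all 3 K-LM P6 samples. T-LM P4 was at -3.49 to -3.14 and T-LM P5 at -3.34, -1.98, -2.47, -2.46, -2.82 and -2.25, so that all but the first lay above all 4 T-LM P6 samples. KPT P5 fell into separate sets, with replicates 1 and 2 at -3.52 and -3.40 and the other 3 at -1.51, -1.12 and -1.41. Of the 18 pairs of groups that are neighbours in the order of mean Maoa level, all 18 had overlapping ranges.

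Maob, which prefers phenylethylamine as substrate, was dim, with 30 of 70 arrays well above background and levels from -7.82 to -4.86. It was -6.89 ± 0.33 (n = 3) in T-LM P3 and -5.99 ± 0.33 (n = 4) in T-LM P6 (change 0.90 ± 0.38, adjusted p 0.121), and no comparison called it.

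**Figure D1:**
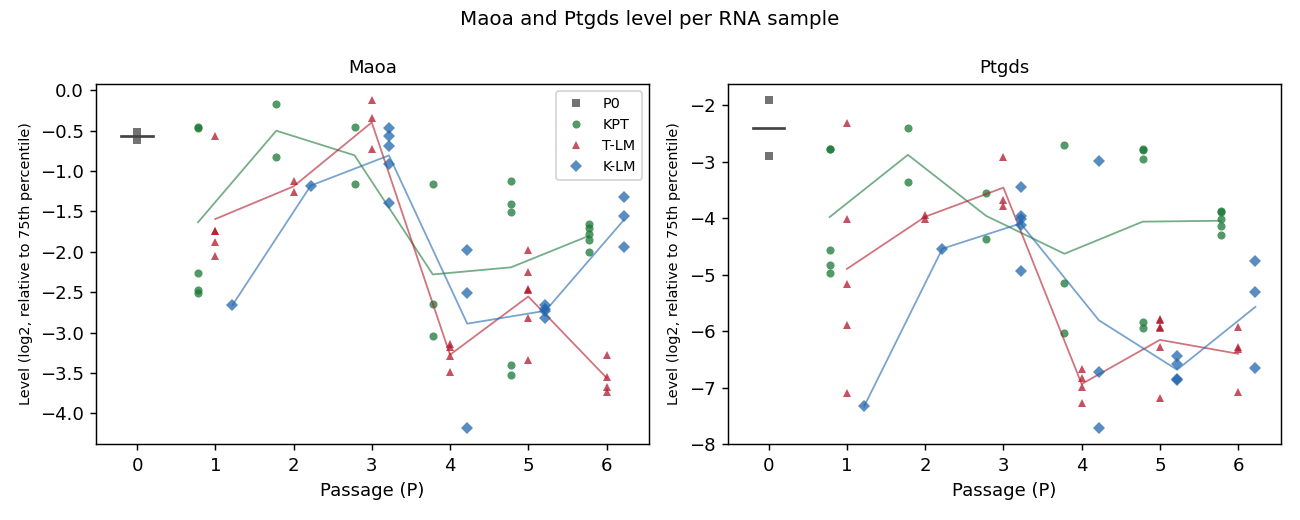
Level of Maoa (left) and Ptgds (right) in each of the 65 RNA samples, on a log2 scale relative to the array's 75th percentile, against passage. Points are samples, coloured by route, lines join the group means of a route, and the bar marks the P0 mean. T-LM P6 samples lie at -3.73 to -3.28 for Maoa and at -7.07 to -5.93 for Ptgds, below all KPT P6 samples.

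Of the cyclooxygenases, Ptgs1 stayed bright and Ptgs2 ranged widely. Ptgs1 was well above background on all 70 arrays, at -1.03 to 1.24. It was 0.79 to 1.24 in KPT P1 and -0.12 to 0.20 in KPT P6, with no overlap, and fell by 0.82 on the log2 scale between them (SE 0.16, adjusted p 0.000951). It was the only member called by its brightest probe in that comparison, where 11.7% of probes were called, and it was still called without the samples with macrophage markers (adjusted p 0.00519). Leaving those samples out, a choice made after seeing the data, kept only replicates 1 and 2 of KPT P1. In that fit 4 more members were called, against 11.1% of probes: Maoa (-1.36 ± 0.22) and Ptgds (-1.19 ± 0.28) lower, and Ptgs2 (1.24 ± 0.26) and Ptgis (1.13 ± 0.20) higher. With all samples, Ptgs2 differed by -1.55 ± 1 (adjusted p 0.298), in the opposite direction. The Ptgs1 change from KPT P3 to P6 was -0.15 ± 0.22 (adjusted p 0.748), and in T-LM 0.75 ± 0.19 (adjusted p 0.0133, just above the threshold).

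Ptgs2 was not well above background on any of the 4 P0 arrays (levels -9.26 and -8.65) and had its highest group means in T-LM and K-LM lines of P4 and P5, in T-LM P6 and in the 1 sample of K-LM P1. In T-LM P3 it was at -8.46, -7.58 and -4.53, and in T-LM P6 at -2.42, -1.07, -2.30 and -3.50, with 1 of 3 P3 arrays well above background, so all P6 samples were higher than all P3 samples. The rise was 4.53 ± 0.75 (adjusted p 0.000433), and within the 3 slides holding both passages it was 1.02 to 7.38. Fitted to those 2 groups alone the adjusted p was 0.0172. From P0 it rose in T-LM by 5.96 ± 0.85 (adjusted p 7.1e-05), at least 23.2-fold. T-LM P4 and P5 were already high, at -3.45 to -2.32 and -3.91 to -1.42.

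K-LM lines were also high at P4 and P5, and lower at P6. Ptgs2 was at -6.16, -6.58, -4.79, -6.11 and -5.42 in K-LM P3, -3.78, -1.42 and -0.93 in P4, -1.40, -1.79, -1.20 and -1.66 in P5, and -5.14, -5.24 and -4.0 in P6. The P5 values lie above all P3 and P6 values. From P0 to K-LM P6 the rise was 4.4 ± 0.64 (adjusted p 3.3e-05), at least 4.19-fold. From P3 to P6 the change was 1.51 ± 0.60 (adjusted p 0.0778). Raising dim values to the floor of each array gave an adjusted p of 0.0138 for K-LM P0 to P6, and the model over all groups 0.0168.

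KPT lines were uneven in Ptgs2. In KPT P1 replicates 1 and 2 were at -6.58 and -6.53 and the other 3 at -3.74, -0.79 and -1.20. In P5 replicates 1 and 2 were at -2.76 and -3.47 and the other 3 at -6.40 to -6.28. The 5 P6 samples lay close together at -5.65 to -5.12. No change along the KPT route was called for Ptgs2 (P0 to P6, 2.97 ± 0.95, adjusted p 0.0815). With only P0 and P6 fitted the adjusted p was 1.91e-05, and on the late slide alone (4.30) it was 9.25e-05. Without the samples that held macrophage markers, the same change had an adjusted p of 3.14e-06, and Maoa (adjusted p 0.002) and Ptgds (adjusted p 0.00208) were called lower from P0 to P6 as well, where 7.4% of probes were called.

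Ptgis, the prostacyclin synthase, was raised along every route from P0. It was at -4.78 and -5.06 in P0, -2.33 to -2.05 in KPT P6, -1.13 to -0.84 in T-LM P6 and -1.98 to -1.48 in K-LM P6, with no overlap among these 4 groups. From P0, KPT rose by 2.62 ± 0.47 (adjusted p 0.00155), T-LM by 3.80 ± 0.56 (adjusted p 8.73e-05) and K-LM by 3.28 ± 0.31 (adjusted p 7.01e-08), and these comparisons share the P0 samples. Leaving out P0 replicate 1 or 2 gave adjusted p 0.0211 and 0.0409 for KPT. In T-LM P3 the levels were -2.88, -4.03 and -2.89. The T-LM rise from P3 to P6 was 2.29 ± 0.49 (adjusted p 0.00354), and was not called without T-LM P3 replicate 3 (adjusted p 0.0183) or T-LM P6 replicate 2 (adjusted p 0.0114). The KPT and K-LM changes from P3 were 0.42 ± 0.47 (adjusted p 0.647) and 1.05 ± 0.29 (adjusted p 0.0171). T-LM P1 was at -4.74, -1.28, -0.73, -0.75 and -1.24. The changes from P1 to P6 were 0.77 ± 0.62 in T-LM (adjusted p 0.404) and 0.28 ± 0.40 in KPT (adjusted p 0.669).

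**Figure D2:**
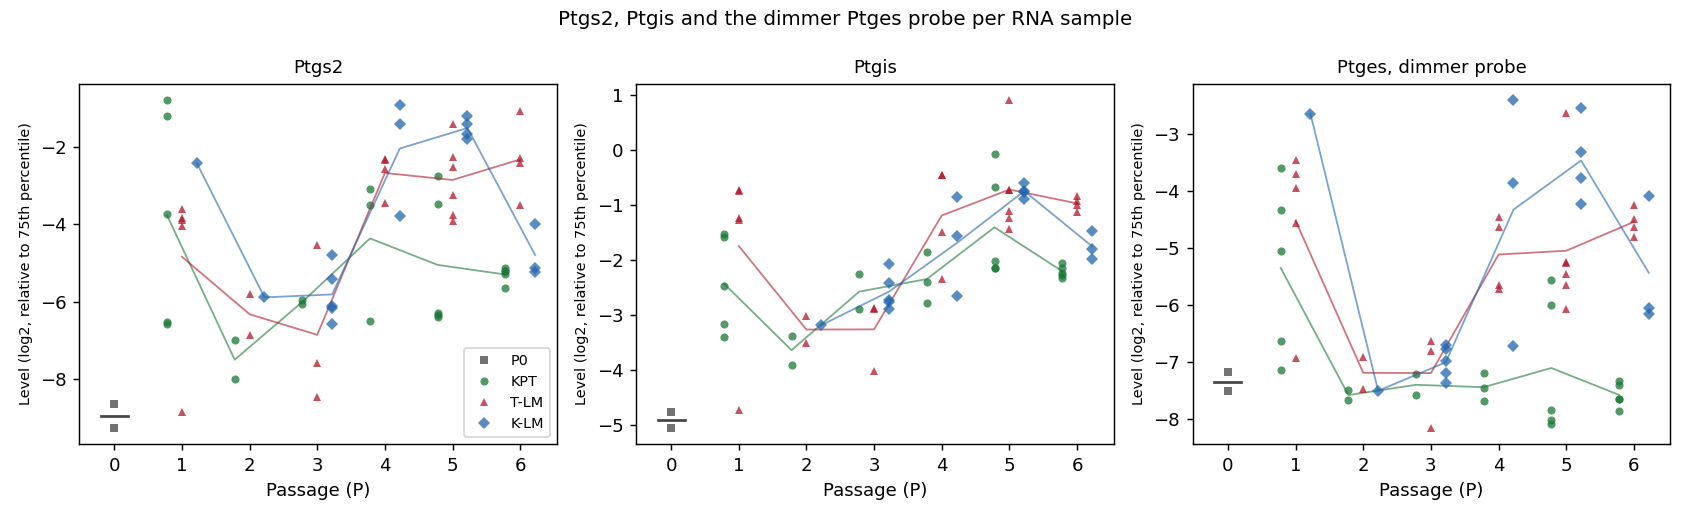
Level of Ptgs2 (left), Ptgis (middle) and the dimmer Ptges probe (right) in each RNA sample, on the same log2 scale, against passage, with points coloured by route and lines through the group means. K-LM P5 samples sit at -1.79 to -1.20 for Ptgs2, above the K-LM P6 samples at -5.24 to -4.0, and Ptgis is lowest in P0.

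The inducible prostaglandin E synthase Ptges was measured by probes that disagree. The brighter was nearly level, 0.22 to 0.84 over all samples, and no comparison called it. The dimmer was well above background on 32 of 70 arrays and spanned -8.16 to -2.41. It was not well above background on any T-LM P3 array (-6.81, -8.16 and -6.63) and was at -4.25, -4.63, -4.50 and -4.81 in T-LM P6, a change of 2.66 ± 0.59 (adjusted p 0.00476), at least 4.6-fold. T-LM P1 was already at -4.53 ± 1.41, with 4 of 5 arrays well above background. From T-LM P1 to P6 the change was -0.02 ± 0.62 (adjusted p 0.989). It was called higher in K-LM P5 than in KPT P5 (3.64 ± 0.68, adjusted p 0.00246), in T-LM P6 than in KPT P6 (2.98 ± 0.32, adjusted p 2.42e-06, at least 5.84-fold) and in K-LM P6 than in KPT P6 (2.27 ± 0.37, adjusted p 0.000236, at least 3.14-fold), and lower in KPT P6 than in KPT P1 (-2.21 ± 0.57, adjusted p 0.00821, at least 3.33-fold). The KPT P1 samples with macrophage markers were at -5.05, -3.61 and -4.34. The other KPT P1 samples were at -6.63 and -7.14 and not well above background. Without the samples with macrophage markers this probe was not tested from KPT P1 to P6. Which transcripts each probe reads is not given in the sources used here.

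Ptgds, the prostaglandin D synthase, was dim and widely spread. It was at -2.90 and -1.91 in P0. In T-LM P3 it was at -3.67, -2.92 and -3.79 and in T-LM P6 at -6.32, -7.07, -6.28 and -5.93, again with no overlap, a difference of -2.94 ± 0.34 (7.68-fold lower at P6). From P0 the difference was -4.01 ± 0.38. T-LM P4 (-7.27 to -6.66) and P5 (-7.18 to -5.79) were as low as P6, with 2 of 4 and 3 of 6 arrays well above background.

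K-LM was lower at P6 than P0, and KPT was not called in the fit over its passages. In K-LM P3 Ptgds was at -4.94, -4.12, -3.96, -4.01 and -3.44, in P5 at -6.86, -6.85, -6.58 and -6.44, and in P6 at -5.30, -4.76 and -6.65. From P0 it fell by 3.07 on the log2 scale (SE 0.74, adjusted p 0.00745), but not past the threshold without K-LM P6 replicate 1 or 3 or either P0 sample (adjusted p 0.0175 to 0.146). KPT P6 was at -3.89, -4.30, -4.14, -4.02 and -3.88, against -4.37 and -3.55 in KPT P3, and the fitted change was 0.00 ± 0.90 from P3 and -1.57 ± 0.90 from P0 (adjusted p 0.388). All KPT P6 values lay below both P0 values. With only P0 and P6 fitted, the KPT change from P0 had an adjusted p of 0.00141.

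Hpgd, which oxidises prostaglandin E2, was read by 2 probes that were never well above background (levels -9.73 to -7.36), so it was not tested. Ptger4, the EP4 receptor, was dim and level, -7.01 to -4.85 with 60 of 70 arrays well above background, and was called in no comparison. From T-LM P3 to P6 its change was 0.02 ± 0.31 (adjusted p 0.981).

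**Figure D3:**
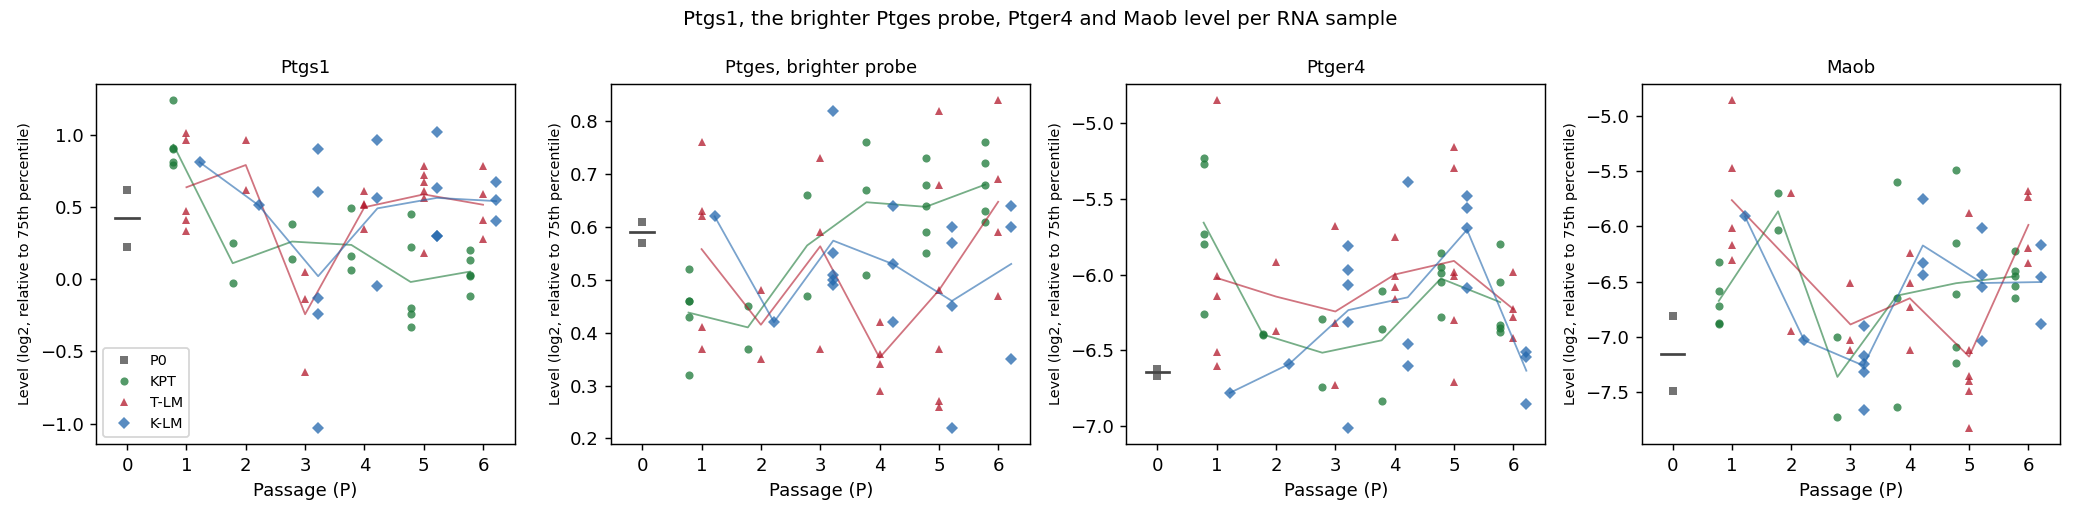
Level of Ptgs1, the brighter Ptges probe, Ptger4 and Maob in each RNA sample, on the same log2 scale, against passage, coloured by route with lines through the group means. The brighter Ptges probe stays between 0.22 and 0.84, Ptgs1 between -1.03 and 1.24.

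Members were counted by their brightest probe, so calls of the dimmer Ptges probe, given above, are not in these counts or in those that follow. Of the 8 members tested, 0 were called from KPT P3 to P6 (0.787% of probes called), 0 from K-LM P3 to P6 (5.77%), and of the 6 open to a test from T-LM P3 to P6 Ptgs2 and Ptgis rose (7.05% of probes called). From P0 to P6, KPT had Ptgis (3.8% of probes called), T-LM Ptgs2 and Ptgis (7.24%), and K-LM Ptgs2 and Ptgis higher and Ptgds lower (5.56%). From T-LM P1 to P6, none of the 6 was called (9.08% of probes called), with Ptgs2 at 2.51 ± 0.88 (adjusted p 0.0498). Maoa differed by -1.97 ± 0.26 there. Without T-LM P1 replicate 1 the Ptgs2 change was 1.52. Calls in both directions are counted.

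**Figure D4:**
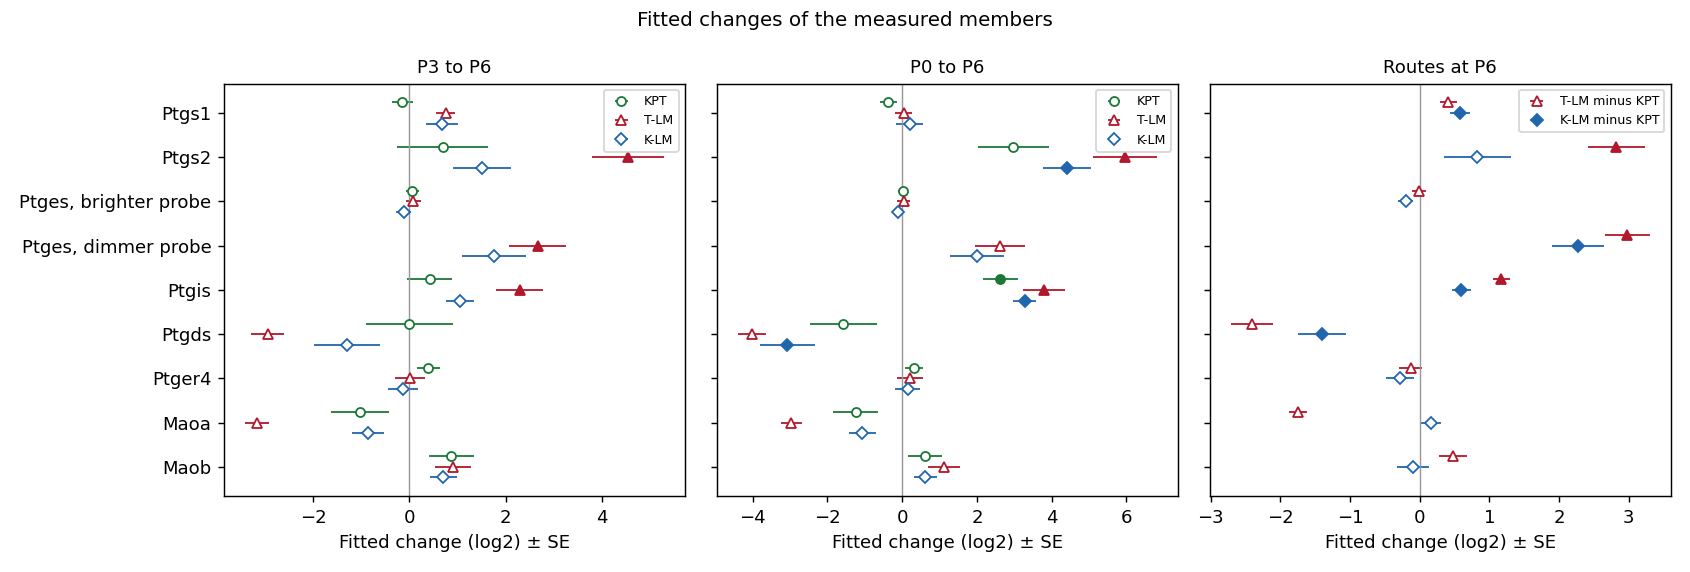
Fitted log2 change ± SE of each measured member, from P3 to P6 (left), from P0 to P6 (middle) and between routes at P6 (right). Filled symbols were called at an adjusted p of 0.01 or less, open symbols were not called or, for Maoa and Ptgds in T-LM, not tested. Ptgis moved to the right of 0 from P0 to P6 in all 3 routes.

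At P5, Ptgs2 was higher in K-LM than in KPT (3.54 ± 0.74, adjusted p 0.00469, 11.6-fold), the only member called by its brightest probe, where 7.37% of probes were called. Leaving out any 1 of 7 of the 9 samples took its adjusted p to 0.012 to 0.0152. Between KPT P5 and T-LM P5, none of the 6 members open to a test was called (5.31% of probes called), with Ptgs2 at 2.19 ± 0.66 (adjusted p 0.0394). Ptgds differed by -2.09 ± 0.57 and Maoa by -0.36 ± 0.41. Between T-LM P5 and K-LM P5, none of the 6 was called (3.41%).

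The KPT P5 group held 2 samples with macrophage markers and the T-LM and K-LM P5 groups 1 each. Col1a1, a fibroblast collagen, was also bright in the 2 KPT samples (2.80 and 0.72, the other KPT P5 samples at -4.94 to -4.07). It was bright in the T-LM sample too (3.16, the others at -1.87 to -0.76). In the K-LM sample it was not (-2.94, the others at -3.37 to -1.70). Leaving these samples out therefore removes both kinds of marker, and the part of each was not tested. Without those 4, K-LM differed from KPT in 4 members (11.7% of probes called): Maoa (-1.39 ± 0.21, adjusted p 0.000561) and Ptgds (-3.92 ± 0.17, adjusted p 9.12e-08) were lower, Ptgs2 (4.88 ± 0.38, adjusted p 5.7e-06) and Ptgis (1.35 ± 0.21, adjusted p 0.000638) higher. T-LM differed from KPT in Ptgs2 (3.20 ± 0.34, adjusted p 9.32e-05) and Ptgis (1.05 ± 0.18, adjusted p 0.00199), where 10.5% of probes were called, and the differences of Maoa (-1.05 ± 0.19) and Ptgds (-3.10 ± 0.15) are a description. Between T-LM and K-LM, Ptgs2 was then higher in K-LM (1.68 ± 0.34, adjusted p 0.00933, 4.44% of probes called). Of the other comparisons that could be made without the samples with macrophage markers, KPT P3 to P6 (4.98% of probes called) and K-LM P3 to P6 (5.08%) still had 0 members called, and K-LM P0 to P6 (5.2%) and KPT against K-LM at P6 (15.5%) had 3 each. All 4 T-LM P6 samples are among those left out, so no T-LM P6 value is free of them. This set of samples was chosen after seeing the data.

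**Figure D5:**
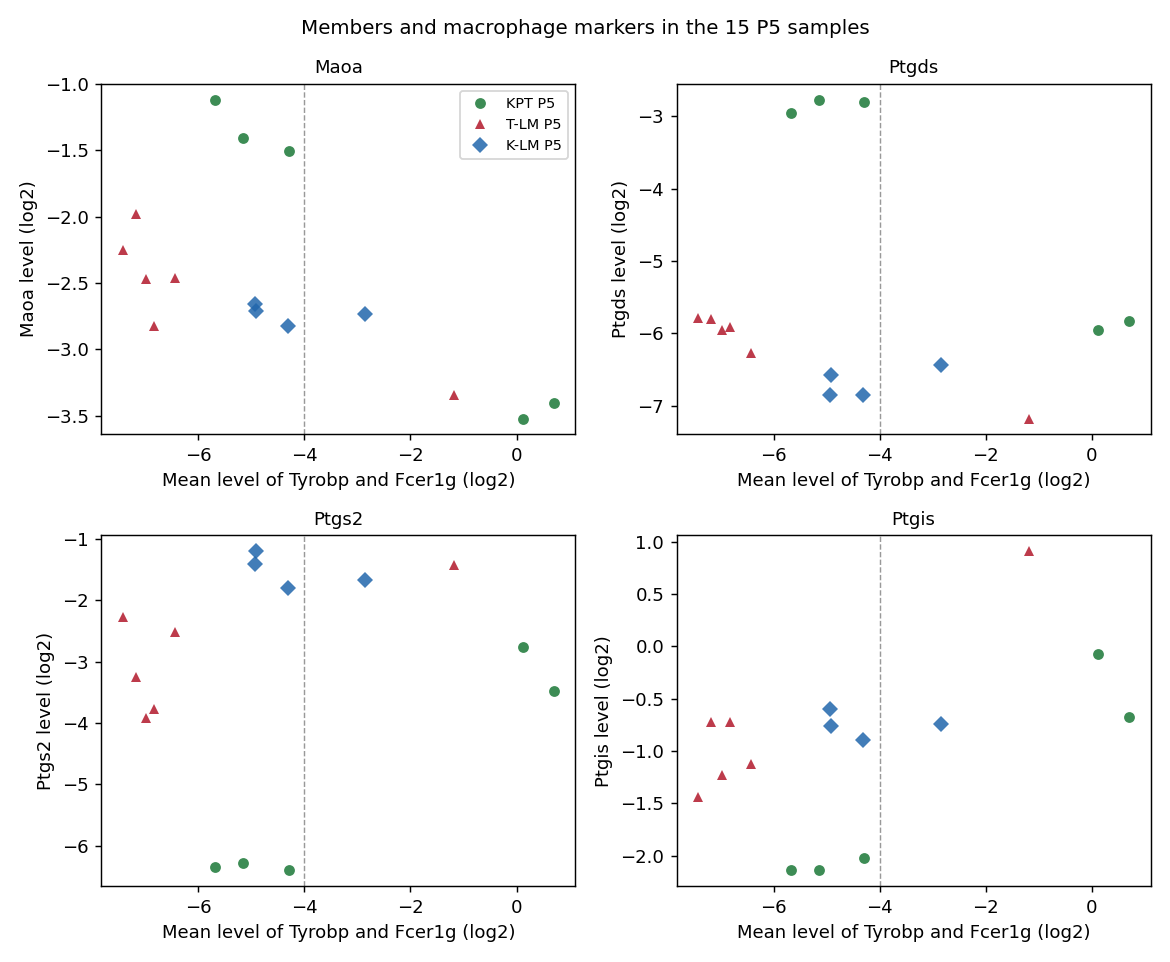
Maoa, Ptgds, Ptgs2 and Ptgis levels (log2) in the 15 P5 samples against the mean level of Tyrobp and Fcer1g, with the dashed line at -4. The 2 KPT samples at the right lie among the lung-derived lines in Ptgds and Ptgs2 and below them in Maoa, the other 3 KPT samples lie above them in Maoa and Ptgds and below them in Ptgs2, and 5 T-LM samples with the lowest marker levels have Maoa of -2.82 to -1.98.

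At P6, Ptgs2 was higher in T-LM than in KPT by 2.82 ± 0.41 (adjusted p 7.52e-05) and Ptgis by 1.17 ± 0.12 (adjusted p 2.23e-06), with no overlap in either. These were the members called by their brightest probe of the 6 open to a test, where 11.3% of probes were called. In the model over all groups neither was called (adjusted p 0.0626 for Ptgs2 and 0.206 for Ptgis). Maoa was lower in T-LM by 1.74 ± 0.13 and Ptgds by 2.41 ± 0.30. By the brightest probes, K-LM differed from KPT in 3 members, where 15.3% of probes were called: Ptgds was lower (-1.40 ± 0.35, adjusted p 0.00703), Ptgs1 higher (0.58 ± 0.14, adjusted p 0.00602) and Ptgis higher (0.60 ± 0.14, adjusted p 0.00482). On the late slide alone, which holds both groups, their adjusted p was 0.0526, 0.0176 and 0.0191. Between T-LM and K-LM, none of the 6 was called (11.7% of probes called), and Maoa was higher in K-LM by 1.90 ± 0.17. Ptgs2 was at -1.98 ± 0.57 (adjusted p 0.0179), and was called with normexp (0.000296), with the deposited values (0.000288), with no late-slide term (0.00105), without K-LM P6 replicate 3 (0.0087) and without T-LM P6 replicate 4 (0.0043). Ptgis was called in K-LM against T-LM with no late-slide term (0.00181) and without K-LM P6 replicate 3 (0.00926). T-LM P6 and K-LM P6 share no slide.

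The difference in the P3 to P6 change between routes was tested directly. Ptgis rose more in T-LM than in KPT, by 1.85 ± 0.36 (adjusted p 0.0018), as the only member called by its brightest probe among the 6 open to a test, where 2.28% of probes were called. This call was lost without KPT P3 replicate 1 (adjusted p 0.052), in the model over all groups (0.592), with normexp (0.0154), with the deposited values (0.0157) and with the replicate block (0.0121). The dimmer Ptges probe also differed (2.78 ± 0.58, adjusted p 0.00393). For Ptgs2 the difference was 3.67 ± 0.99 (adjusted p 0.0308). Between K-LM and KPT 0 members differed (1.05% of probes called), and between K-LM and T-LM none of the 6 (2.92%). For Maoa the difference was -2.15 ± 0.31 for T-LM minus KPT and 2.31 ± 0.31 for K-LM minus T-LM, both as descriptions.

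More macrophage, fibroblast, lung epithelium and platelet markers were above background in T-LM P6 than in T-LM P3. In T-LM P3, 4 of 10 macrophage and leukocyte markers were well above background (summed level 1.55 to 2.26), and in T-LM P6 6 to 9 of 10 (1.61 to 1.83), against 4 to 5 in P0 (1.04 to 1.29), 5 to 7 in KPT P6 (1.54 to 2.06) and 4 in K-LM P6 (1.24 to 1.81). The defining macrophage markers Adgre1 and Tyrobp were not above background in any P0, T-LM P3 or K-LM P6 sample, and in T-LM P6 Tyrobp was above it in 4 of 4 and Adgre1 in 2 of 4. Fibroblast markers went from 1 to 5 of 8 in T-LM P3 (-3.05 to -0.88) to 7 to 8 in T-LM P6 (0.98 to 2.75), and lung epithelium markers from 0 to 1 of 6 to 2 to 4 of 6 (summed level -5.42 to -4.86, then -3.05 to -0.70). Platelet markers went from 0 of 4 to 2 of 4 (-7.15 to -6.34, then -1.24 to -0.21). Fibroblast markers were 2 to 4 of 8 in P0 (-4.90 to -4.72), and 6 to 7 in both KPT P6 (-1.03 to 0.15) and K-LM P6 (-0.06 to 1.57). The part of all these markers in the T-LM results was not tested. In the 5 T-LM P5 samples in which Tyrobp was at -7.72 to -6.30, Maoa was at -2.82 to -1.98, below all T-LM P3 samples, and Ptgds at -6.28 to -5.79. Col1a1, a fibroblast collagen, was at -1.87 to -0.76 in these 5 samples, against -8.63 to -3.33 in T-LM P3. The mean level of long mRNAs minus that of ribosomal protein mRNAs was -9.01 to -6.68 in T-LM P3 and -7.20 to -6.49 in T-LM P6, and its part was not tested.

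Other genes of the pathway were counted in the same comparisons, where 7.05% of all probes were called from T-LM P3 to P6, 0.787% in KPT and 5.77% in K-LM. Of 14 tested prostanoid synthesis genes, 3 rose from T-LM P3 to P6: Prxl2b, a prostamide synthase (3.93 ± 0.85), Tbxas1, the thromboxane synthase (2.82 ± 0.59, at least 1.62-fold), and Pla2g7, a phospholipase (1.06 ± 0.25), while 0 of 14 changed in KPT and 0 of 13 in K-LM. The list's median change was 0.53 against 0.09 over all probes. Of 3 tested receptors, the prostacyclin receptor Ptgir rose in T-LM (2.05 ± 0.32) and K-LM (2.13 ± 0.52), and Ptger3, an EP receptor, in K-LM (1.64 ± 0.37). The mean Ptger3 level was -5.34 in K-LM P3 and -3.69 in K-LM P6, both below its -2.91 in P0. Among 6 transport and inactivation genes, Ptgr1, a prostaglandin reductase, fell in T-LM (-1.46 ± 0.21) and K-LM (-1.53 ± 0.35), and Slco2a1, the prostaglandin transporter, rose by 1.63 in K-LM. None of these lists had a call from KPT P3 to P6.

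From P0, where KPT had 3.8%, T-LM 7.24% and K-LM 5.56% of probes called, several list genes were called in more than 1 route. Akr1b7, an aldo-keto reductase, was higher at P6 of all routes (KPT 2.73 ± 0.28, T-LM 2.08 ± 0.25, K-LM 2.18 ± 0.24), as was Alox5ap, which helps make leukotrienes (3.47 ± 0.25, 2.80 ± 0.35 and 3.19 ± 0.35 in the same order). Ptgir was not well above background in P0 and was at least 1.3-fold, 4.68-fold and 3.2-fold higher at P6. Prxl2b was also not well above background in P0, and was at least 6.32-fold higher in T-LM P6 and at least 3.13-fold higher in K-LM P6. Pla2g4a, a phospholipase, rose in KPT (1.85 ± 0.22) and T-LM (1.78 ± 0.31). Cysltr1, a leukotriene receptor, fell in T-LM (-3.44 ± 0.42) and K-LM (-3.78 ± 0.48). All of these were called.

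Over the 65 samples, the genes nearest in level to each well-detected member were found by Pearson's r among 10531 candidates, as a description in which samples share passages and slides. Maoa was nearest to Echdc3 (r 0.89), Ptgds (0.84) and Acat1 (0.83), and Ptgds to Snx8 (0.85), Maoa (0.84) and Pdzk1ip1 (0.80). Ptgs2 was nearest to Il6 (0.92), Marcks (0.91) and Cd200 (0.91), and Ptgis, over 64 samples, to Lbh (0.92), Acta2 (0.90) and Scarf2 (0.90). Ptgs1 was nearest to Gpr137 (0.83), Ctdsp2 (0.80) and Xylt2 (0.80). The nearest genes of the brighter Ptges probe (Anapc13, 0.67) and of Ptger4 (Bhlhe40, 0.69) were less alike.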

How the data were processed

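Total RNA was amplified, labelled with Cy5 and hybridised to single-colour Agilent mouse arrays, per the labels. The deposited scanner files give a signal intensity per spot, which the authors' scanner software (Feature Extraction 11.0.1.1, and 12.0.2.2 for the later slide, per the file headers) had corrected for background and spatial trend. The table of log2 values deposited by the authors matched the quantile-normalized raw median signal to within 0.105, and served as an alternative.

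Control spots and 15176 outlier values were left out. The log2 of the processed signal was centred on the 75th percentile, per array, of 12209 probes well above background on all 70 arrays. Between 25.2% and 55.2% of probes passed background per array, and precision is set by how many arrays a group has. Accessions were named through a RefSeq table (GRCm38.p6). Each gene was read by its brightest probe on average.

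Probes that passed background on 2 or more arrays of a fit were tested with limma 3.58.1 (R 4.3.3, lmFit and eBayes). P0 and P2 to P6 of KPT or T-LM shared a fit of first arrays, and P1 was added for its comparisons, so fitted changes can differ from the differences of group means, which average repeat arrays. The K-LM, P6 and interaction fits also held the repeat arrays, with late-slide membership as a covariate and RNA sample as random block (statmod 1.5.0, 4000 probes). A ratio against a group with no array above background is given as at least N-fold, with each array of that group raised to its lowest passing signal, and group means used in place of the fit. The fits were tested on simulated data. The members, gene lists and tests were chosen with earlier results of these data known. Genes were named by rule: all members, up to 3 largest called changes per list from P3 to P6, and up to 3 nearest genes by r. From P0 to P6, those among the 3 largest called changes of a list in more than 1 route were named. Replicate numbers did not pair the samples. Results of the monoamine gene list are not reported here.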

Additional observations from a re-analysis of the deposited data

Results flagged for a closer look

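Of 81 sets, each 1 member probe in 1 group of 4 or more samples, 9 had a sample standing far from the others. Chance flags about 1 in 20 such sets. The sets share samples and so are not independent, and most flags came from T-LM P1 replicate 1 and T-LM P5 replicate 1. T-LM P1 replicate 1 stood apart in Ptgs2 at -8.84 (the others at -4.04 or above), in Ptgis at -4.74 (nearest -1.28) and in Maoa at -0.56 (nearest -1.74). All 3 values lie at or near the P0 levels, and its title names no route.

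T-LM P5 replicate 1, which also had Tyrobp at -1.43 and Col1a1 at 3.16, stood apart in Ptgds at -7.18, in Ptgis at 0.91, in the dimmer Ptges probe at -2.63 and in Maob at -5.88. Its array was the dimmest of all, with the lowest share of probes above background (25.2%) and the lowest 75th percentile (4054, median 12260). Ptgds was not well above background on it. KPT P1 replicate 4 had Ptgs1 at 1.24 and K-LM P3 replicate 4 had the brighter Ptges probe at 0.82.

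The change from P3 to P6 differed between T-LM and KPT for Ptgis (1.85, adjusted p 0.0018 in limma) and for the dimmer Ptges probe (2.78, adjusted p 0.00393). For Ptgds (-2.91) and Maoa (-2.15) the same difference was not tested, nor that of Maoa between K-LM and T-LM (2.31), because these genes were chosen for it.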

How the results depend on the processing

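Of 616 member changes recomputed under other settings, 602 kept their direction, as did 529 of 542 with a sample left out. No value called in the main fits reversed. The changes that reversed were near 0 or not called in the main fits. Without macrophage-marker samples, Ptgs2 and Ptgds from KPT P1 to P6 were called in the reversed direction (adjusted p 0.00362 and 0.00784 in limma). Ptgds from KPT P3 to P6 (0.00) became -0.21 with the percentile over all probes, -0.31 with normexp, -0.30 with the deposited values, -0.03 in the model over all groups and -0.97 with the replicate block, and -0.41 to 0.41 with a sample left out. Ptgis between T-LM and K-LM at P5 (-0.03) became 0.09 with normexp, 0.11 with the deposited values, 0.04 with slide as a block, 0.23 with the replicate block, 0.30 without samples with macrophage markers, and -0.17 to 0.30 with a sample left out. Ptgds from KPT P1 to P6 (0.02) became -0.01 in the model over all groups and -1.19 without macrophage-marker samples (-0.23 to 0.32 with a sample left out), Maoa there was -0.41 to 0.10, Ptgs2 there 1.24 without macrophage-marker samples, and Ptgis from T-LM P1 to P6 was -0.18 with the replicate block. The causes were not tested.

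Counts of called members, by their brightest probe and with Maoa and Ptgds included as fitted, moved by more than 1.5 times as follows. The counts not listed stayed within it. In T-LM comparisons those genes were chosen for their falls, so the counts describe the settings and test nothing. Main fits gave 4 for T-LM P3 to P6, T-LM P0 to P6 and KPT against T-LM at P6. They gave 3 for K-LM P0 to P6, KPT against K-LM at P6 and T-LM minus KPT. For K-LM P3 to P6, KPT against T-LM at P5 and T-LM against K-LM at P5 they gave 0, and 1 for the others listed. The share of all probes called under each setting is not given here. With normexp and with the deposited values, T-LM against K-LM at P6 and the K-LM minus T-LM change gave 2. With no filter, KPT against K-LM at P6 gave 0. With the filter on all arrays, T-LM P3 to P6 and P0 to P6 gave 2, K-LM P0 to P6 gave 1 and KPT against K-LM at P5 gave 0. With slide as a block, KPT against K-LM at P5 gave 2. In the model over all groups, K-LM P0 to P6 and KPT against T-LM at P6 gave 1, KPT against K-LM at P5 gave 2, and KPT against K-LM at P6, T-LM against K-LM at P6 and the T-LM minus KPT and K-LM minus T-LM changes gave 0. With the replicate block, KPT against K-LM gave 2 at P5 and 0 at P6, and T-LM minus KPT gave 1. Without the late-slide term, KPT against K-LM at P6 gave 1, T-LM against K-LM at P6 gave 3 and K-LM minus T-LM gave 2. On the late slide alone, KPT P0 to P6 gave 3 and KPT against K-LM at P6 gave 0. With only the groups compared, KPT P0 to P6 gave 4. Without macrophage-marker samples (chosen after seeing the data) KPT P0 to P6 gave 4, KPT P1 to P6 gave 5, and at P5 KPT against T-LM gave 4, KPT against K-LM 4 and T-LM against K-LM 2, and no T-LM P6 sample was left to compare.

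With a sample left out, the same counts, again only a description, ran from 0 to 1 for KPT P0 to P6 and K-LM P3 to P6. They ran from 1 to 2 for T-LM P1 to P6 and K-LM minus T-LM, and from 0 to 2 for KPT against K-LM and against T-LM at P5. The range was 0 to 3 for KPT against K-LM at P6, and 1 to 4 for T-LM against K-LM at P6 and for T-LM minus KPT. Replicate numbers did not pair the samples: 43 pairs correlated at -0.50 to 0.58, and 11 were closest to their own number. Signal over background limits Hpgd, Maob, Ptger4, the dimmer Ptges probe and Ptgs2 in P0.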
